A study of Mus musculus with 27 samples.

Results

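Disease-associated and phagocytic microglia genes were followed as a set of 36 named members among the 26264 gene symbols of the expression table and are identified by symbol. The table lists symbols in lower case (apoe, trem2, tyrobp, cst7, spp1), and they are written below in the usual mouse form. All 36 members had a row, and 35 of them were tested, having averaged 1 FPKM or more. The exception was Mmp12, a macrophage elastase. FPKM is the number of sequenced fragments scaled by transcript length and library size, so it can be compared between genes.

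The RNA came from a small block of cortex of female 5xFAD/C57BL6 mice, 16 weeks old, taken from each hemisphere 24 h after 500 nL had been microinjected on one side into the lateral parietal associative cortex. 5xFAD mice carry mutant human transgenes under the neuronal Thy1 promoter and develop amyloid pathology, and every mouse here carried them, so no group is free of it. The injection held vehicle, R33 or R55, the drugs being thiophene thioureas made to stabilize the retromer, given at 10 mM. Vehicle was 3% DMSO with 20% sulfobutylether beta-cyclodextrin in saline, and the drug solutions had the same base. The 27 libraries came from 4 vehicle mice (J, L, M and AH), 5 R33 mice (K, N, O, AD and AE) and 5 R55 mice (P, Q, R, AA and AB). The letters are mouse labels (AD is one of them), and values listed below for a group follow this order of mice, AE being last among the R33 injected values. Both hemispheres were used for all mice except AE, of which the injected side alone was used. The libraries held 15932196 to 38077026 fragments assigned to genes, with a median of 27441308.

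Microglia are the resident macrophages of the brain. Around amyloid plaques they take on a state in which the lipid-sensing receptor Trem2 and its adaptor Tyrobp signal for the induction of genes for lipid handling, lysosomal breakdown and phagocytosis, while homeostatic genes such as P2ry12 and Tmem119 decline. Several members, among them Spp1, Lgals3, Lyz2 and Gpnmb, are also made by macrophages that enter injured tissue from blood, and Apoe, Lpl, Timp2 and Cd9 are made by other brain cells too. In a tissue block, fewer microglia and less of a transcript per microglia cannot be told apart.

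The start regions of 3 members are given to set the promoters of a receptor (Trem2) and the Fc receptor adaptor (Fcer1g) beside that of Spp1, the member with the largest estimate below. Each line is the 200 bases before the start of the gene's canonical transcript (GRCm39, GENCODE M39), 5′ to 3′ on the gene's own strand, with matches to 3 motifs on either strand in capitals. The first is GAGGAA, a core read by PU.1 and other ETS factors. The second is the AP-1 site TGANTCA. The third is CACGTG, the E-box of the MiT/TFE lysosomal factors. Trem2 is from chr17:48653229-48653428, Fcer1g from chr1:171062220-171062419 and Spp1 from chr5:104581965-104582164.
Trem2: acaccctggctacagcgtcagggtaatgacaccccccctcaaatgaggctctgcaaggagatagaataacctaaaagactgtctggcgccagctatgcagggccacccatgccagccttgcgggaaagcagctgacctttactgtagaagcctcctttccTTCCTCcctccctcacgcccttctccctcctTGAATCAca
Fcer1g: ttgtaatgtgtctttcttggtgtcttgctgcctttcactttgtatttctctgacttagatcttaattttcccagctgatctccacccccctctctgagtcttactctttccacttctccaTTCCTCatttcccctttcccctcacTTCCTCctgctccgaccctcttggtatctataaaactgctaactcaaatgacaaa
Spp1: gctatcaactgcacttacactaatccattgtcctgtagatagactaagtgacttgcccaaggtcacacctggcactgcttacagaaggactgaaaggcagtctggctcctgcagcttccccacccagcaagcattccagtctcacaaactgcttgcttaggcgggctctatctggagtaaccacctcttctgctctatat
GAGGAA was found in 12 of the 36 member windows (33.3%), among them Trem2, Ctss, Cd68, Clec7a and Ccl3, against 18.8% of 21751 windows of protein-coding genes. The longer GAGGAAGT, which overlaps it, stood in 1 member window, that of Fcer1g, and in 1.77% of all windows. TGANTCA was found in 3 member windows (8.33%, those of Trem2, Cd68 and Mmp12; 4.93% of all windows) and CACGTG in 1 (2.78%, that of Itgb2; 5.43% of all windows). The Spp1 window held none of these letters.

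The members spanned a wide range of levels. Apoe, the lipid carrier made mostly by astrocytes in healthy brain, had the highest mean at 1101 FPKM, with libraries between 726 and 1783. Ctss, a lysosomal cysteine protease, followed at 187 FPKM (87.6 to 336). Tyrobp averaged 123 FPKM (50.1 to 253) and Trem2 51.9 FPKM (21.3 to 72.6). Cst7, an inhibitor of cysteine proteases that marks the plaque-associated state, averaged 42.5 FPKM (10.5 to 73.9). The lowest of those tested were Cd84, a SLAM-family receptor, at 1.82 FPKM and Gpnmb, a lysosomal glycoprotein, at 1.82 FPKM. The ratio of the highest to the lowest library was 2.10 for Csf1 and 29.3 for Lgals3, and it was 20.97 for Spp1.

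Libraries of one group differed in the level of the whole set, most of all in the R55 injected group. The level of the set in a library was summarized as the median over 35 members of the log2(FPKM + 1) value minus that gene's mean over the 27 libraries. It was highest in the R55 injected library of mouse AA (0.83) and lowest in the R55 injected libraries of mice P (-0.84) and Q (-0.71), so both ends of the range lay in one group. The SD of this median over libraries was 0.73 in the R55 injected group and 0.47 in the R33 injected group. It was 0.25 in the vehicle injected group and 0.18 in the vehicle contralateral group. The group means lay between -0.17 (R33 contralateral) and 0.15 (R33 injected), with 0.023 for vehicle injected and -0.014 for R55 injected.

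**Figure D1:**
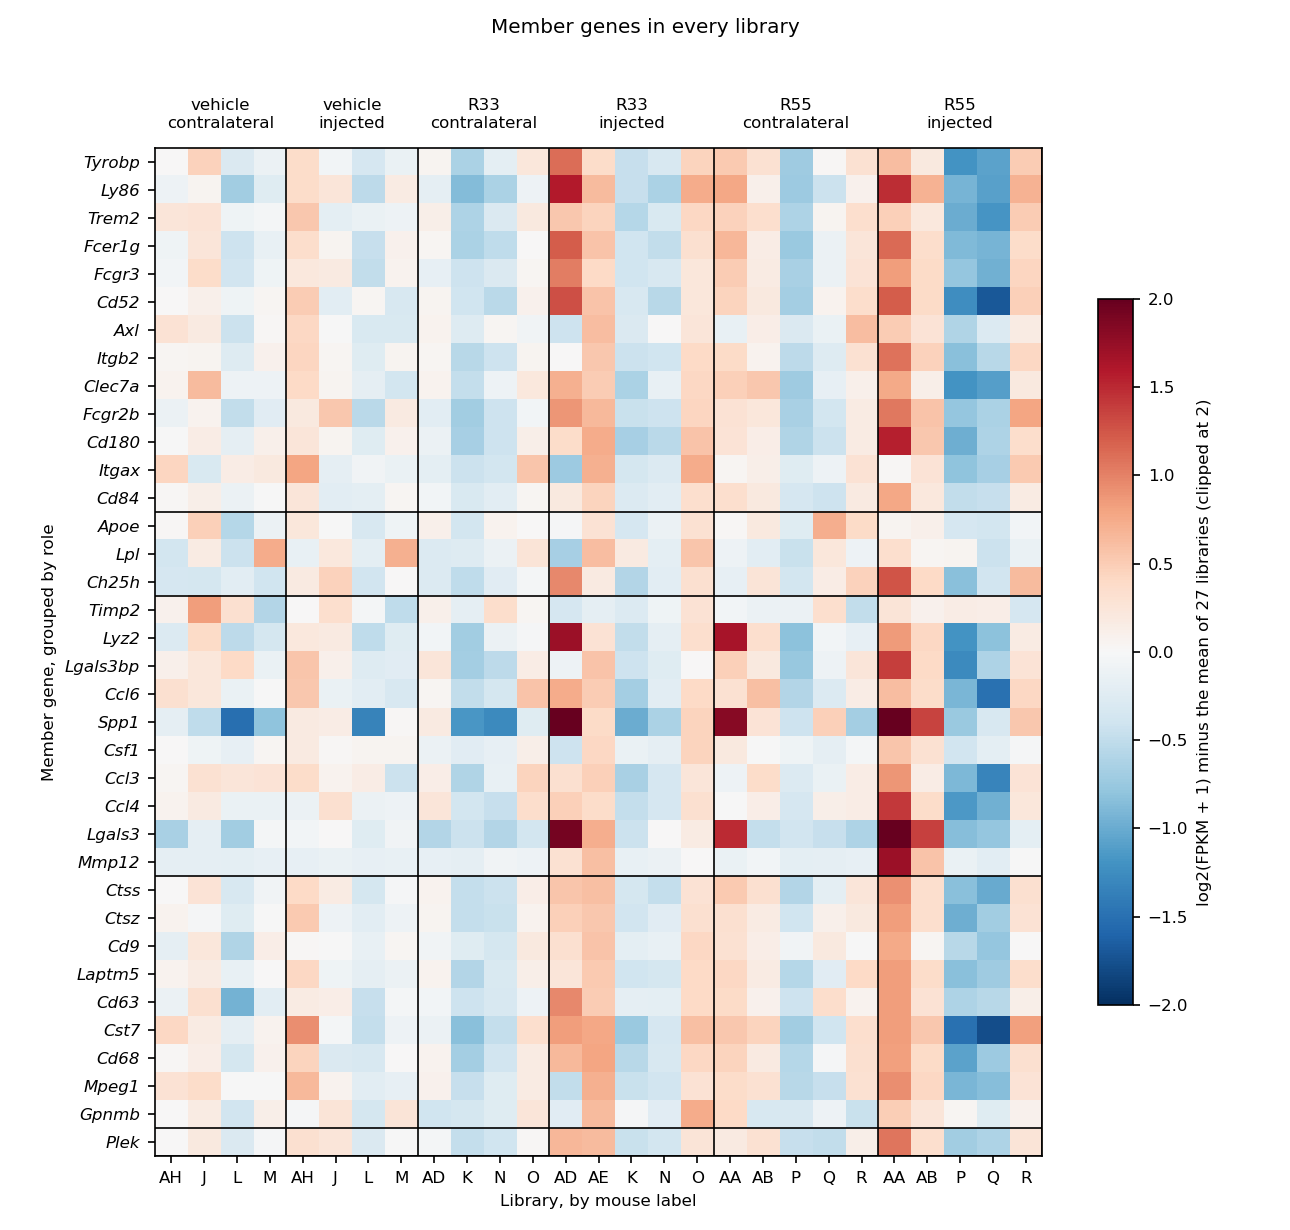
Heat map of the 36 members (rows, grouped by role) in 27 libraries (columns, by group and mouse label); colour gives log2(FPKM + 1) minus the gene's mean, clipped at 2. Columns AA and AD of the injected hemispheres are red for most rows, columns P and Q of the R55 injected group are blue, and the rows of Timp2, Lpl and Apoe break from the columns.

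Of the 36 members, 20 had their highest value in the R55 injected library of mouse AA, where 5.30% of the 12976 tested genes peaked. Another 9 were highest in the R33 injected library of mouse AD, where 21.96% of tested genes peaked. That library also held the minimum of 13.58% of tested genes, so extremes in it were not particular to the members. The lowest value of 18 members lay in the R55 injected library of mouse P and of 11 in that of mouse Q, which held the minimum of 2.22% and 2.58% of tested genes. The R55 injected group thus held the extremes of most members in both directions.

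The 11 homeostatic microglia genes of the marker list rose and fell with the members across libraries. The correlation of the median of the members with that of the homeostatic genes was 0.963 over 27 libraries, which share mice, depth and tissue block, and is given as a description. Summed over the list, the homeostatic genes reached 698 FPKM in the injected library of AA and 235 and 249 FPKM in those of Q and P. Among the members, Laptm5 (r = 0.974 with the homeostatic median), Ctss (0.965), Cd68 (0.957) and Trem2 (0.916) were among those that followed it closely. Timp2, a metalloproteinase inhibitor also expressed by other cells, had r = -0.098, Lpl 0.231, Gpnmb 0.469, Apoe 0.560 and Itgax 0.584. The median correlation over the 595 pairs of members was 0.757.

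Members also followed a monocyte marker, to varying degrees. Ccr2, the chemokine receptor that defines inflammatory monocytes, was at 1.57 FPKM in the contralateral library of AA, 1.08 FPKM in the injected library of AD and 0.832 FPKM in the injected library of AA. It was 0.554 FPKM in the vehicle injected library of mouse J and 0.356 FPKM in the injected library of AB. The other 22 libraries lay between 0.0354 and 0.198 FPKM. Ccr2 counts were low, from 3 fragments in the libraries of the vehicle mouse M to 144 in the contralateral library of AA. The correlation with log2(Ccr2 FPKM + 0.1) over the same 27 libraries was highest for Spp1 (0.838), Lgals3 (0.834) and Lyz2 (0.823). Ly86 (0.746), Fcer1g (0.716) and Fcgr3 (0.704) came next. It was 0.583 for Tyrobp, 0.456 for Trem2 and 0.152 for Apoe, and lowest for Lpl (-0.044). The summed level of all 8 monocyte markers overlapped between groups, with 16.8 to 27.6 FPKM in vehicle injected, 13.95 to 27.1 in R33 injected and 18.9 to 26.6 in R55 injected libraries, and most of it came from Ly6c1 and Fn1, which vessels also express. The 7 border macrophage markers summed to 17.1 FPKM in the injected library of AD and 12.9 FPKM in that of AB, and to 1.32 to 9.19 FPKM elsewhere. Of 10 neutrophil markers, Ly6g was listed at 0 in 22 libraries, while S100a8 averaged 2.01 FPKM and S100a9 2.48 FPKM, both highest in the injected library of AD (6.32 and 5.31 FPKM). The neutrophil list summed to 5.52 to 12.3 FPKM in vehicle injected, 6.33 to 18.6 in R33 injected and 6.66 to 14.1 in R55 injected libraries. The 4 haemoglobin genes of the red blood cell list were listed at 0 in all 27 libraries, and Alas2, its other gene, was highest in the injected library of AD (8.17 FPKM). The part of these cells in the results below was not tested. Markers of neurons, astrocytes, oligodendrocytes and endothelium were present in all libraries.

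**Figure D2:**
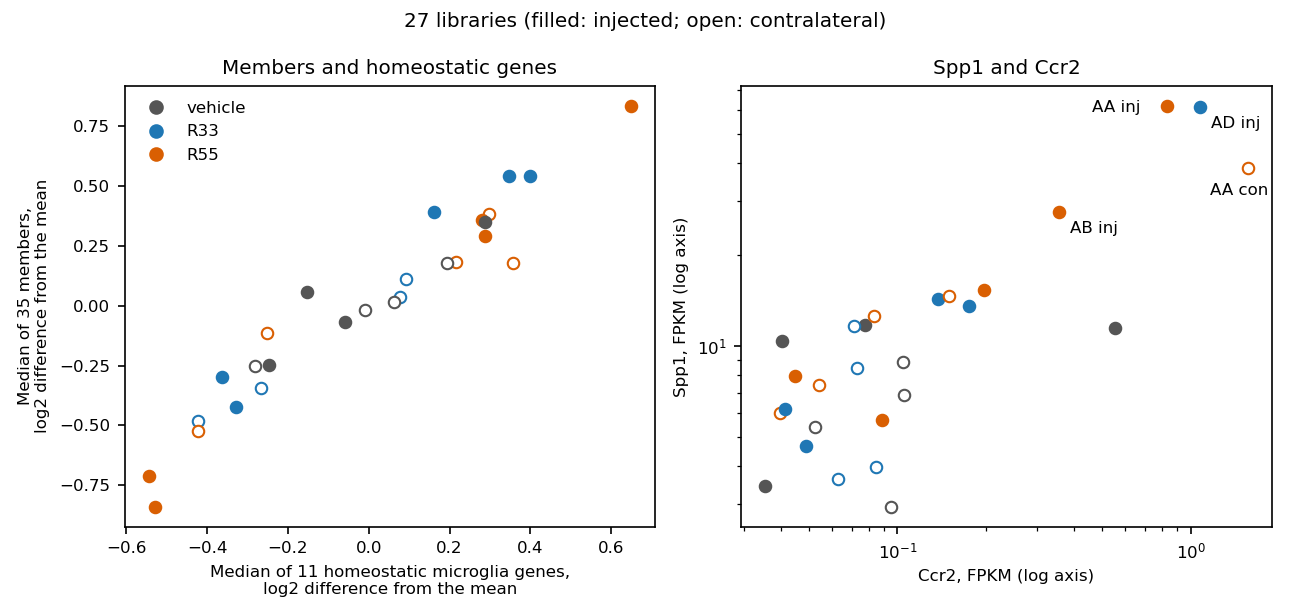
Left, median of 35 members against the median of 11 homeostatic microglia genes, both as log2 differences from the mean of 27 libraries; right, Spp1 against Ccr2 in FPKM on log axes. On the left the libraries lie along one line; on the right the injected libraries of AA and AD (61.8 and 61.2 FPKM of Spp1) and the contralateral library of AA (38.5 FPKM) stand at the upper end.

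Treatment was tested with limma on log2(FPKM + 1), with hemisphere as a second term and p-values adjusted over all 12976 tested genes. Neither R55 nor R33 moved any member past an adjusted p of 0.05. R55 against vehicle called 0 of 35 members, where 0.00771% of all tested genes were called (1 gene). At an unadjusted p under 0.05 it had 1 member, Spp1, against 8.45% of all tested genes. With the correlation within mice modelled, 0 genes were called and Spp1 remained the 1 member at the unadjusted threshold, against 4.0% of all tested genes. R33 against vehicle called 0 of 35 members (0% of all genes), and 0 at the unadjusted threshold against 5.87%. The direct comparison of R55 with R33 also called 0 members (0% of all genes), and 0 at the unadjusted threshold against 1.15%. With the mouse as unit, the means of R55 and vehicle mice did not overlap for 0 of 35 members (2.41% of all tested genes), and those of R33 and vehicle mice for 0 (0.771%).

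The estimates were small for most members. The median log2 fold change of the members was 0.0051 for R55 against vehicle, with 18 of 35 above 0, beside 0.026 and 60.2% over all tested genes. It was 0.0048 for R33 against vehicle, with 20 of 35 above 0, beside 0.018 and 57.5%. The 95% interval lay within a 1.5-fold change in either direction for 20 members under R55 and 23 under R33, and within a 2-fold change for 33 under each. For R55 against R33 it lay within 1.5-fold for 23 members and within 2-fold for 34, with a median estimate of 0.017. These intervals count the hemispheres of a mouse singly. With the injected side fitted alone, 5 members under R55 and 3 under R33 lay within 1.5-fold, and 26 and 24 within 2-fold. With the contralateral side alone these were 19 and 10 within 1.5-fold, and 32 and 33 within 2-fold. Without mouse AA the R55 median was -0.14, with 5 of 35 members above 0, and without mouse P it was 0.18, with 31 above 0. With the trend of fold change with transcript length removed, 10 of 35 were above 0 for R55 (median -0.045) and 7 for R33 (-0.047), and with the form of the mouse label as a covariate 10 (-0.055) and 9 (-0.032).

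**Figure D3:**
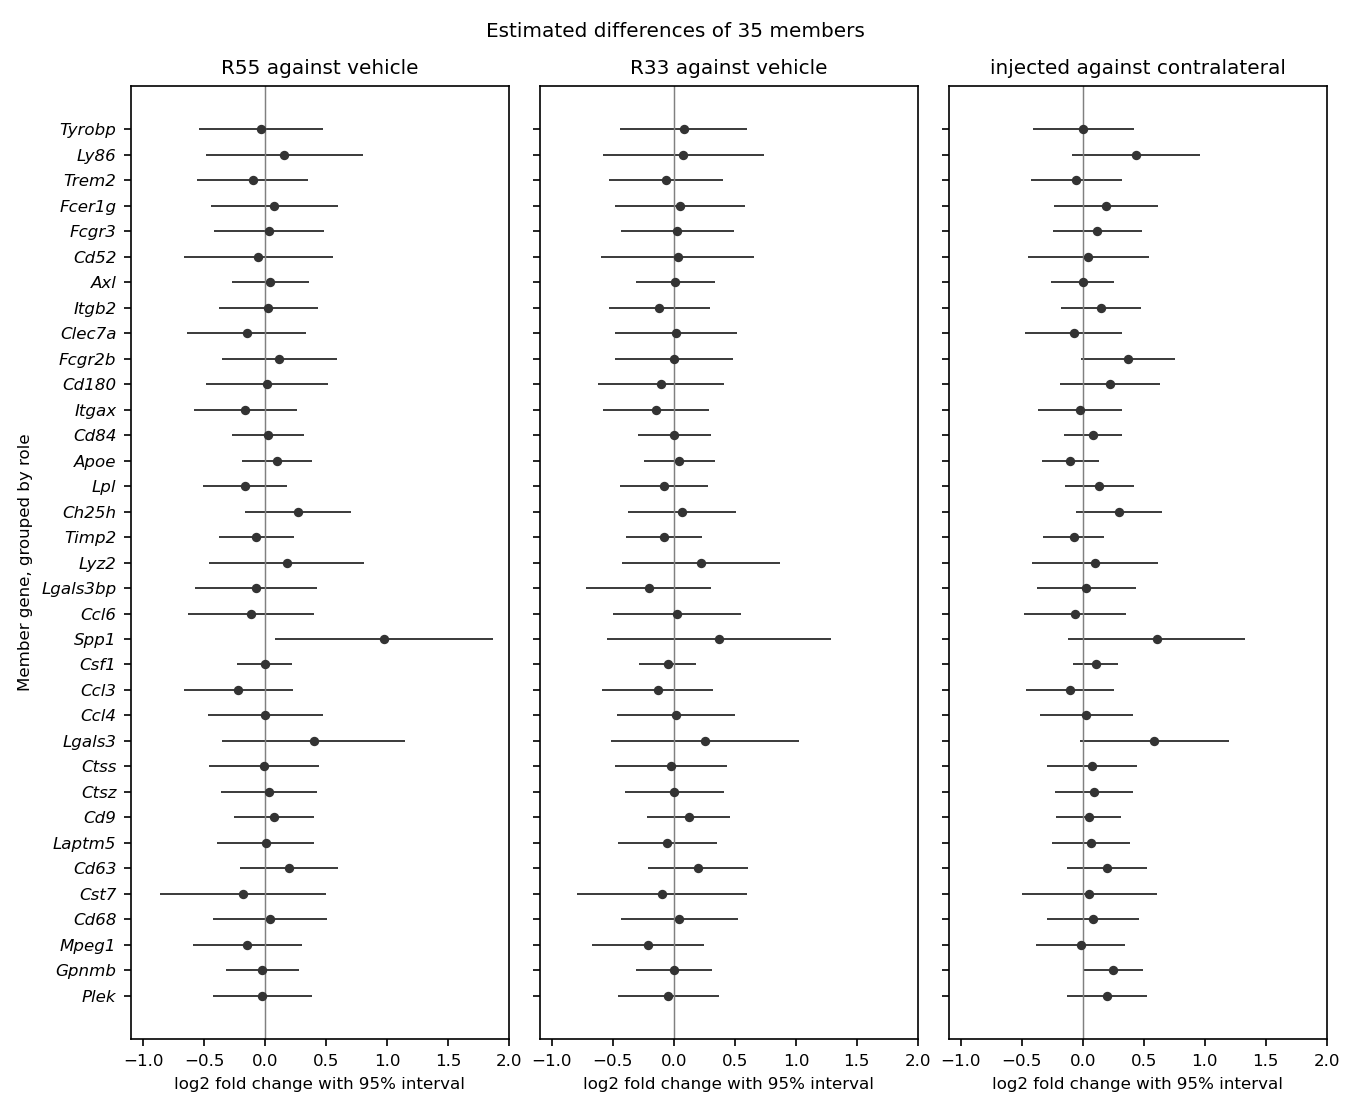
Estimated log2 fold change of each tested member (points) with its 95% interval (bars) for R55 against vehicle, R33 against vehicle and the injected against the contralateral side. The interval of Spp1 under R55 (0.084 to 1.87) and that of Gpnmb by side (0.00032 to 0.49) exclude 0; neither holds after adjustment over all genes.

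Of the receptors and adaptors, 13 members, none passed the unadjusted threshold in R55 or R33 against vehicle, and the medians of their log2 fold changes were 0.026 and 0.013. Trem2 binds lipids and apolipoproteins on the microglial surface. Trem2 in vehicle mice measured 60.1, 46.4, 48.3 and 58.5 FPKM contralaterally and 43.3, 44.9, 46.2 and 72.3 FPKM on the injected side. For Trem2, R33 mice gave 32.00, 40.1, 56.6 and 53.7 FPKM contralaterally and 32.9, 40.1, 66.00, 72.6 and 68.03 FPKM on the injected side. With R55, Trem2 was 31.96, 51.5, 62.8, 68.5 and 62.8 FPKM contralaterally and 24.4, 21.3, 70.6, 69.2 and 57.4 FPKM on the injected side. Trem2 libraries overlapped between the treatments, with the lowest values in P and Q on the injected side of R55 mice and the highest in AD, AH and R. The group means were 51.7 ± 13.8 FPKM (SD, n = 4), 55.9 ± 18.1 FPKM (SD, n = 5) and 48.6 ± 24.1 FPKM (SD, n = 5) on the injected side. The log2 fold change was -0.10 (SE 0.22, 95% interval -0.56 to 0.35, adjusted p = 0.881) for R55 and -0.068 (SE 0.23, 95% interval -0.54 to 0.40, adjusted p = 0.961) for R33.

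Tyrobp, also called DAP12, carries the signal of Trem2 and related receptors through its ITAM. Tyrobp in vehicle mice measured 159, 94.5, 106 and 116 FPKM contralaterally and 111, 91.9, 105 and 149 FPKM on the injected side. For Tyrobp, R33 mice gave 73.95, 101, 136 and 119.6 FPKM contralaterally and 83.7, 92.3, 158, 253 and 150.05 FPKM on the injected side. With R55, Tyrobp was 70.6, 118, 142, 168 and 142 FPKM contralaterally and 50.1, 54.4, 166, 178 and 133 FPKM on the injected side. Here too P and Q had the lowest injected values, and AD, at 253 FPKM, stood above all other libraries. The estimate was -0.035 (SE 0.25, 95% interval -0.54 to 0.47, adjusted p = 0.974) for R55 and 0.081 (SE 0.25, 95% interval -0.44 to 0.60, adjusted p = 0.957) for R33.

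Itgb2, the common chain of the leukocyte integrins, and Clec7a, the beta-glucan receptor dectin-1, followed Spp1 and Ch25h in the order of p-values among members in R55 against R33. Clec7a in vehicle mice measured 11.8, 6.69, 6.73 and 7.69 FPKM contralaterally and 7.60, 6.32, 5.37 and 9.89 FPKM on the injected side. For Clec7a, R33 mice gave 4.91, 6.71, 8.59 and 7.72 FPKM contralaterally and 4.35, 6.43, 10.04, 12.6 and 10.7 FPKM on the injected side. With R55, Clec7a was 4.07, 6.33, 7.89, 10.5 and 10.97 FPKM contralaterally and 2.59, 2.84, 8.47, 13.02 and 7.99 FPKM on the injected side. Clec7a spread most within the R55 injected group, from P and Q at the bottom to AA at the top. Itgb2 in vehicle mice measured 7.79, 6.09, 7.96 and 7.68 FPKM contralaterally and 7.63, 6.17, 7.71 and 10.4 FPKM on the injected side. For Itgb2, R33 mice gave 4.74, 5.30, 7.75 and 7.65 FPKM contralaterally and 5.29, 5.43, 10.1, 7.52 and 11.3 FPKM on the injected side. With R55, Itgb2 was 4.88, 6.07, 9.45, 10.1 and 7.83 FPKM contralaterally and 3.73, 4.71, 10.2, 16.8 and 10.6 FPKM on the injected side. Itgb2 was likewise lowest in P and Q on the injected side and highest in AA, and the treatments overlapped for both genes. For R55 against R33 the estimates were -0.17 (SE 0.23, 95% interval -0.64 to 0.31, adjusted p = 0.9998) for Clec7a and 0.15 (SE 0.19, 95% interval -0.25 to 0.54, adjusted p = 0.9998) for Itgb2, and the first turned positive without mouse P (0.050) and the second negative without mouse AA (-0.027).

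Fcer1g and Fcgr3, parts of activating Fc receptors, had estimates of 0.074 (-0.45 to 0.60) and 0.032 (-0.42 to 0.49) for R55 against vehicle, with 95% intervals in brackets. Axl, a receptor for phosphatidylserine bridging proteins, had 0.044 (-0.27 to 0.36) and Itgax, the integrin chain CD11c, -0.16 (-0.59 to 0.26). Cd84, Cd180, its partner Ly86 and the surface glycoprotein Cd52 had estimates of 0.026 (-0.27 to 0.32), 0.015 (-0.49 to 0.52), 0.16 (-0.49 to 0.80) and -0.057 (-0.67 to 0.55).

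The 3 lipid genes had medians of 0.095 under R55 and 0.045 under R33. Apoe in vehicle mice measured 1496, 726, 997 and 1099 FPKM contralaterally and 1076, 861, 1015 and 1261 FPKM on the injected side. For Apoe, R33 mice gave 832, 1129, 1084 and 1163 FPKM contralaterally and 853, 999, 1334, 1062 and 1315 FPKM on the injected side. With R55, Apoe was 914, 1783, 1413, 1093 and 1232 FPKM contralaterally and 857, 836, 1038, 1115 and 1154 FPKM on the injected side. Apoe varied less than most members, and its highest value, 1783 FPKM, lay in the contralateral library of Q, whose injected side had 836 FPKM. The estimate was 0.095 (SE 0.14, 95% interval -0.19 to 0.38, adjusted p = 0.818) for R55 and 0.045 (SE 0.14, 95% interval -0.25 to 0.34, adjusted p = 0.958) for R33. Lpl, which releases fatty acids from lipoproteins, had -0.16 (-0.51 to 0.18) and -0.081 (-0.44 to 0.28).

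Ch25h makes 25-hydroxycholesterol, an oxysterol that macrophages produce on activation. Ch25h in vehicle mice measured 1.71, 1.98, 1.61 and 1.74 FPKM contralaterally and 3.75, 1.63, 2.47 and 2.90 FPKM on the injected side. For Ch25h, R33 mice gave 1.43, 1.94, 2.37 and 1.84 FPKM contralaterally and 1.29, 1.97, 3.30, 5.72 and 2.88 FPKM on the injected side. With R55, Ch25h was 1.68, 2.82, 3.72, 2.06 and 3.13 FPKM contralaterally and 0.928, 1.64, 4.36, 7.20 and 3.53 FPKM on the injected side. On the contralateral side 4 of 5 R55 libraries lay above all 4 vehicle libraries, P being the exception. That contralateral comparison gave 0.39 (SE 0.15, 95% interval 0.067 to 0.71, adjusted p = 0.382), with an unadjusted p of 0.0211. Ch25h missed the unadjusted threshold there without mouse AB, M or R, and with the trend of fold change with transcript length removed. Over both sides the estimate was 0.27 (SE 0.21, 95% interval -0.17 to 0.70, adjusted p = 0.672), and for R55 against R33 0.20 (SE 0.20, 95% interval -0.22 to 0.62, adjusted p = 0.9998).

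Spp1, or osteopontin, a secreted phosphoprotein of phagocytic microglia and macrophages, had the largest estimate of any member. Spp1 in vehicle mice measured 6.86, 2.95, 5.41 and 8.86 FPKM contralaterally and 11.4, 3.45, 10.4 and 11.7 FPKM on the injected side. For Spp1, R33 mice gave 3.98, 3.65, 8.45 and 11.6 FPKM contralaterally and 4.66, 6.21, 14.3, 61.2 and 13.5 FPKM on the injected side. With R55, Spp1 was 7.41, 14.6, 6.02, 38.5 and 12.5 FPKM contralaterally and 5.71, 7.96, 15.3, 61.8 and 27.6 FPKM on the injected side. Vehicle libraries stayed under 12 FPKM, while values over 25 FPKM came from AA on both sides, AB on the injected side and the R33 mouse AD on the injected side. The group means on the injected side were 9.25 ± 3.91 FPKM (SD, n = 4), 19.98 ± 23.4 FPKM (SD, n = 5) and 23.7 ± 22.95 FPKM (SD, n = 5). Contralaterally they were 6.02 ± 2.49 FPKM (SD, n = 4), 6.93 ± 3.83 FPKM (SD, n = 4) and 15.8 ± 13.2 FPKM (SD, n = 5). R55 against vehicle gave a log2 fold change of 0.98 (SE 0.44, 95% interval 0.084 to 1.87, adjusted p = 0.572), a 1.97-fold higher level, with an unadjusted p of 0.0333. R33 against vehicle gave 0.37 (SE 0.45, 95% interval -0.55 to 1.29, adjusted p = 0.886) and R55 against R33 0.61 (SE 0.42, 95% interval -0.26 to 1.47, adjusted p = 0.9998).

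The Spp1 difference rested on few mice. Without mouse AA it was 0.56 (unadjusted p = 0.169) and without the vehicle mouse L 0.67 (unadjusted p = 0.163), while without mouse P it was 1.24 (unadjusted p = 0.00941). It also missed the unadjusted threshold without mouse AB (0.90, unadjusted p = 0.0704) and without the vehicle mouse M (1.01, unadjusted p = 0.0503). With 1 value per mouse the unadjusted p was 0.0947. Without mouse AD the R33 estimate turned from 0.37 to -0.036. Among mice with a single-letter label the R55 mean exceeded the vehicle mean by 0.48 on the log2 scale (3 mice against 3), and among those with a double-letter label by 1.48 (2 against 1). The 4 libraries over 25 FPKM of Spp1 were among the 5 highest in Ccr2, given above. On the contralateral side alone the R55 estimate was 1.05 (SE 0.45, 95% interval 0.077 to 2.02, adjusted p = 0.415), and on the injected side 0.91 (SE 0.70, 95% interval -0.60 to 2.41, adjusted p = 1).

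**Figure D4:**
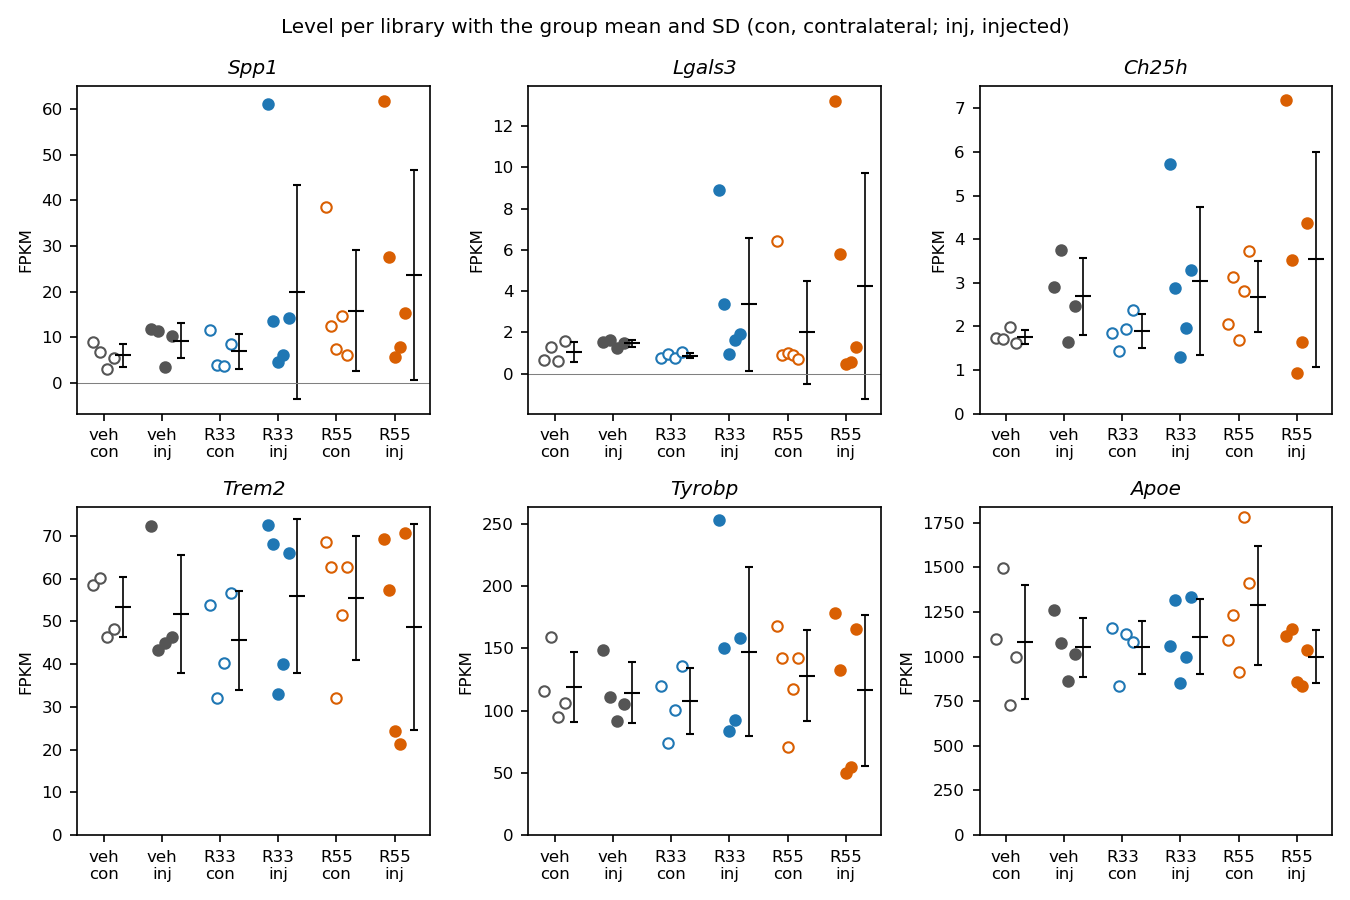
FPKM of Spp1, Lgals3, Ch25h, Trem2, Tyrobp and Apoe per library (points), by treatment and hemisphere, with the group mean and SD (bar to the right of the points). The treatments overlap in every panel; Spp1 and Lgals3 have single high libraries from mice AA, AB and AD, and Trem2 and Tyrobp have 2 low R55 injected libraries, of mice P and Q.

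Lgals3, galectin-3, which recognizes damaged lysosomes and glycoproteins, followed the same libraries as Spp1. Lgals3 in vehicle mice measured 1.31, 0.616, 1.56 and 0.683 FPKM contralaterally and 1.64, 1.22, 1.51 and 1.52 FPKM on the injected side. For Lgals3, R33 mice gave 0.952, 0.760, 1.03 and 0.752 FPKM contralaterally and 0.949, 1.64, 1.94, 8.89 and 3.36 FPKM on the injected side. With R55, Lgals3 was 1.02, 0.920, 0.707, 6.44 and 0.899 FPKM contralaterally and 0.451, 0.542, 1.29, 13.2 and 5.82 FPKM on the injected side. Apart from AA, AB, AD and AE, all libraries were under 2 FPKM. R55 against vehicle gave 0.40 (SE 0.37, 95% interval -0.36 to 1.15, adjusted p = 0.706), and the estimate was -0.056 without mouse AA. Its binding partner Lgals3bp was among the members with the smallest p-values in R33 against vehicle. Lgals3bp in vehicle mice measured 37.9, 42.9, 29.2 and 34.8 FPKM contralaterally and 34.5, 26.7, 27.5 and 47.8 FPKM on the injected side. For Lgals3bp, R33 mice gave 19.7, 22.2, 36.01 and 38.4 FPKM contralaterally and 23.95, 26.99, 32.3, 29.8 and 48.6 FPKM on the injected side. With R55, Lgals3bp was 18.7, 30.1, 38.3, 45.3 and 36.98 FPKM contralaterally and 12.8, 20.8, 39.1, 85.7 and 42.6 FPKM on the injected side. The R33 and vehicle libraries of Lgals3bp overlapped, and the estimate was -0.21 (SE 0.25, 95% interval -0.72 to 0.31, adjusted p = 0.886).

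Ccl3, a chemokine that draws in leukocytes, had the only estimate below 0 among the 4 members named for R55. Ccl3 in vehicle mice measured 10.7, 10.2, 10.4 and 8.77 FPKM contralaterally and 8.91, 9.50, 6.04 and 11.2 FPKM on the injected side. For Ccl3, R33 mice gave 5.24, 7.51, 11.9 and 9.41 FPKM contralaterally and 5.07, 6.48, 10.2, 10.9 and 12.1 FPKM on the injected side. With R55, Ccl3 was 6.87, 7.58, 9.44, 7.85 and 11.2 FPKM contralaterally and 4.05, 2.79, 10.4, 16.4 and 9.52 FPKM on the injected side. The injected sides of Q and P were lowest and that of AA highest. The R55 estimate for Ccl3 was -0.22 (SE 0.22, 95% interval -0.67 to 0.23, adjusted p = 0.726). Ccl4 and Ccl6 had -0.00021 (-0.47 to 0.47) and -0.12 (-0.63 to 0.40), the growth factor Csf1 -0.0036 (-0.23 to 0.22), Timp2 -0.072 (-0.38 to 0.23) and lysozyme, Lyz2, 0.18 (-0.46 to 0.81). Lyz2 is nearly identical to Lyz1, so its fragments may be shared. Lyz2 reached 108 FPKM in the injected library of AD and 103 FPKM in the contralateral library of AA, against 22.2 to 42.6 FPKM in vehicle libraries.

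Mmp12 averaged 0.237 FPKM. It stood at 2.86 FPKM in the injected library of AA, 0.775 in that of AE, 0.738 in that of AB and 0.458 in that of AD, and between 0.0108 and 0.187 FPKM in the other 23 libraries. The vehicle libraries held 0.0213 to 0.0681 FPKM, so the 4 high libraries were all from injected sides of drug-treated mice with double-letter labels, and the injected side of the vehicle mouse AH, with such a label, held 0.0535 FPKM.

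Of the 9 lysosomal, phagosomal and tetraspanin members, none passed the unadjusted threshold under R55 or R33, with medians of 0.0051 and -0.001. Cd63, a tetraspanin of late endosomes, and Mpeg1, the macrophage pore-forming perforin-2, had the smallest p-values among members in R33 against vehicle. Cd63 in vehicle mice measured 60.6, 24.6, 41.5 and 44.3 FPKM contralaterally and 52.6, 34.6, 46.97 and 53.9 FPKM on the injected side. For Cd63, R33 mice gave 35.7, 38.1, 44.9 and 46.3 FPKM contralaterally and 42.6, 41.8, 63.6, 95.03 and 68.8 FPKM on the injected side. With R55, Cd63 was 35.9, 61.7, 50.4, 62.96 and 51.1 FPKM contralaterally and 30.96, 32.6, 52.2, 86.4 and 59.1 FPKM on the injected side. Cd63 was highest in the injected libraries of AD and AA and lowest in the contralateral library of the vehicle mouse L. Mpeg1 in vehicle mice measured 42.2, 32.3, 32.5 and 39.8 FPKM contralaterally and 34.2, 28.01, 28.96 and 51.2 FPKM on the injected side. For Mpeg1, R33 mice gave 23.4, 27.3, 36.3 and 34.7 FPKM contralaterally and 23.5, 24.6, 39.7, 22.9 and 53.7 FPKM on the injected side. With R55, Mpeg1 was 21.8, 23.4, 40.4, 41.9 and 40.2 FPKM contralaterally and 16.8, 17.5, 39.3, 62.7 and 43.6 FPKM on the injected side. Unlike Cd63, Mpeg1 was low in the injected library of AD, and it was highest in that of AA. For R33 the estimates were 0.20 (SE 0.20, 95% interval -0.21 to 0.61, adjusted p = 0.871) for Cd63 and -0.21 (SE 0.22, 95% interval -0.67 to 0.25, adjusted p = 0.874) for Mpeg1. The Cd63 value was 0.014 without the vehicle mouse L and 0.088 without AD. Cst7, Ctss, Ctsz, Cd68, Cd9 and Laptm5 had R55 estimates of -0.18 (-0.86 to 0.50), -0.0063 (-0.46 to 0.44), 0.031 (-0.36 to 0.43), 0.041 (-0.43 to 0.51), 0.07 (-0.26 to 0.40) and 0.0051 (-0.39 to 0.40). Plek, a phagosomal kinase substrate, had -0.022 (-0.43 to 0.38).

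Within each hemisphere the treatments also gave no call. On the injected side, R55 and R33 against vehicle called 0 of 35 members (0% of all genes for both), and 0 at the unadjusted threshold, where 1.09% and 1.84% of all genes lay. Contralaterally, R55 called 0 members (0% of all genes) and had 2 at the unadjusted threshold, Spp1 and Ch25h, against 11.5%. Spp1 missed that threshold without mouse AA, AB, L, M or Q and without the filter on low values, and Ch25h without AB, M or R. With the trend of fold change with transcript length removed both missed it, and the 1 member there was Ccl3, which was lower. In that contralateral comparison the estimate was 0.76 for the border macrophage marker Pf4 and 0.67 for Alas2. Each was the only gene tested of its list, border macrophages and red blood cells. Both were at the unadjusted threshold in the main fit, as was 1 of the 3 neutrophil markers tested, where 11.5% of all tested genes lay. The part of these cell types in the Spp1 and Ch25h values was not tested. R33 called 0 contralaterally (0%), with 0 at the unadjusted threshold against 2.96%. The members' estimates under R33 leaned to opposite sides in the hemispheres, with 27 of 35 above 0 and a median of 0.12 on the injected side, and 3 of 35 above 0 and a median of -0.16 contralaterally. Over all tested genes these were 52.4% and 0.0068, and 59.6% and 0.025. The injected lean was smaller without mouse AD (19 of 35 above 0, median 0.035), AE (20, 0.021) or L (20, 0.015), and with the form of the mouse label as a covariate (19, 0.014). It was larger without AH (32, 0.22), K (31, 0.25) or N (31, 0.22). The contralateral lean was smaller without mouse J (8 of 35 above 0, median -0.078) or K (9, -0.059), and larger without L (1, -0.25) or O (0, -0.27). The difference of the R33 effect between hemispheres was above 0 for 35 of 35 members, with a median of 0.28 (45.6% and -0.012 over all genes). It called 0 members (0% of all genes), and 0 at the unadjusted threshold against 0.378%. With the mouse as a fixed block over the 13 mice with both sides, 30 of 35 were above 0 and the median was 0.17. The members rose and fell together (median pairwise correlation 0.757), so these counts are not counts of independent genes. Their median also followed that of the homeostatic microglia genes (correlation 0.963), so the leans are not shown to be particular to the members. For R55 the difference between hemispheres had a median of -0.096 with 10 of 35 above 0, and called 0 members (0%), with 0 at the unadjusted threshold against 1.84%. That median turned positive without mouse Q (0.099, 24 above 0) and with the trend of fold change with transcript length removed (0.0092, 19 above 0).

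The injected side was compared with the contralateral side over mice of all treatments. The drugs were given on the injected side, so the pooled comparison joins the microinjection with the drug. The vehicle mice alone, which had the injection without a drug, had a member median of 0.016, with 19 of 35 above 0. The values by treatment follow below. Over all treatments 0 members were called (0% of all genes), and 1 passed the unadjusted threshold, Gpnmb, against 3.47%. The median of the members was 0.085 with 26 of 35 above 0, beside 0.00097 and 50.7% over all genes. Gpnmb missed the unadjusted threshold with the form of the mouse label as a covariate, and without mouse AB, AD, AE, J, K, M, P or R. Without the filter on low values the 1 member at that threshold was Mmp12, both over all treatments and within R55 mice. With the mouse as a fixed block over 13 pairs, 5 members passed the unadjusted threshold (Fcgr2b, Gpnmb, Lgals3, Ly86 and Spp1) against 6.13% of all tested genes, and 0 the adjusted one, with a smallest adjusted p of 0.62.

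Gpnmb, named above, marks lipid-laden phagocytes. Gpnmb in vehicle mice measured 2.06, 1.11, 1.97 and 1.75 FPKM contralaterally and 2.29, 1.15, 2.30 and 1.69 FPKM on the injected side. For Gpnmb, R33 mice gave 1.14, 1.32, 2.26 and 1.07 FPKM contralaterally and 1.71, 1.34, 3.57, 1.34 and 3.27 FPKM on the injected side. With R55, Gpnmb was 1.20, 1.54, 1.01, 2.60 and 1.20 FPKM contralaterally and 1.84, 1.32, 1.90, 2.88 and 2.24 FPKM on the injected side. The sides overlapped, and Gpnmb was higher on the injected side in 11 of 13 mice, by a mean of 0.21 on the log2 scale. The estimate over all libraries was 0.25 (SE 0.12, 95% interval 0.00032 to 0.49, adjusted p = 0.9999). Fcgr2b is the inhibitory Fc receptor of macrophages. Fcgr2b in vehicle mice measured 7.26, 4.55, 5.68 and 6.18 FPKM contralaterally and 10.3, 4.38, 7.88 and 7.92 FPKM on the injected side. For Fcgr2b, R33 mice gave 3.86, 4.86, 6.56 and 5.75 FPKM contralaterally and 4.75, 4.86, 9.55, 13.4 and 11.3 FPKM on the injected side. With R55, Fcgr2b was 3.99, 5.04, 7.76, 8.53 and 8.13 FPKM contralaterally and 3.60, 4.07, 12.5, 15.3 and 10.6 FPKM on the injected side. Fcgr2b was higher on the injected side in 10 of 13 mice, and the estimate was 0.37 (SE 0.19, 95% interval -0.012 to 0.76, adjusted p = 0.9999). Spp1 was higher on the injected side in 11 of 13 mice (mean 0.59), Ly86 in 10 (0.41), Lgals3 in 9 (0.56) and Ch25h in 9 (0.29), and the estimates for Spp1, Lgals3 and Ch25h were 0.61 (-0.12 to 1.33), 0.59 (-0.024 to 1.20) and 0.30 (-0.053 to 0.65). Trem2 was higher on the injected side in 6 of 13 mice, Tyrobp in 6, Apoe in 6 and Ccl3 in 4.

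Mice differed in which side was higher. On the injected side 33 of 35 members were higher in AA, 32 in AH, 31 in O, 29 in R and 28 in AB, whereas 3 were in P and 0 in Q. The median difference of the members between the sides was 0.45 in AA, 0.51 in AD and 0.34 in the vehicle mouse AH, and -0.60 in Q and -0.32 in P. By treatment, the median of the members' estimates was 0.016 in vehicle mice (19 of 35 above 0), 0.31 in R33 mice (34 of 35) and -0.032 in R55 mice (14 of 35). The R55 value was 0.10 without mouse Q (28 of 35) and -0.19 without AA (9 of 35). Each of these called 0 members (0% of all genes), and 0 at the unadjusted threshold, against 1.08%, 2.84% and 3.66% of all genes. The R33 estimate includes the injected library of AE without a contralateral one, and with the mouse as a fixed block over the 4 R33 pairs the median was 0.20, with 30 of 35 above 0 and 8 members at the unadjusted threshold, against 6.29% of all tested genes. Those were Cd63, Fcer1g, Fcgr2b, Gpnmb, Lgals3, Ly86, Lyz2 and Spp1, and 0 were called. In R55 mice the block put 2 of 35 members (Apoe and Gpnmb) at the unadjusted threshold, against 9.53% of all tested genes, and 0 were called.

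**Figure D5:**
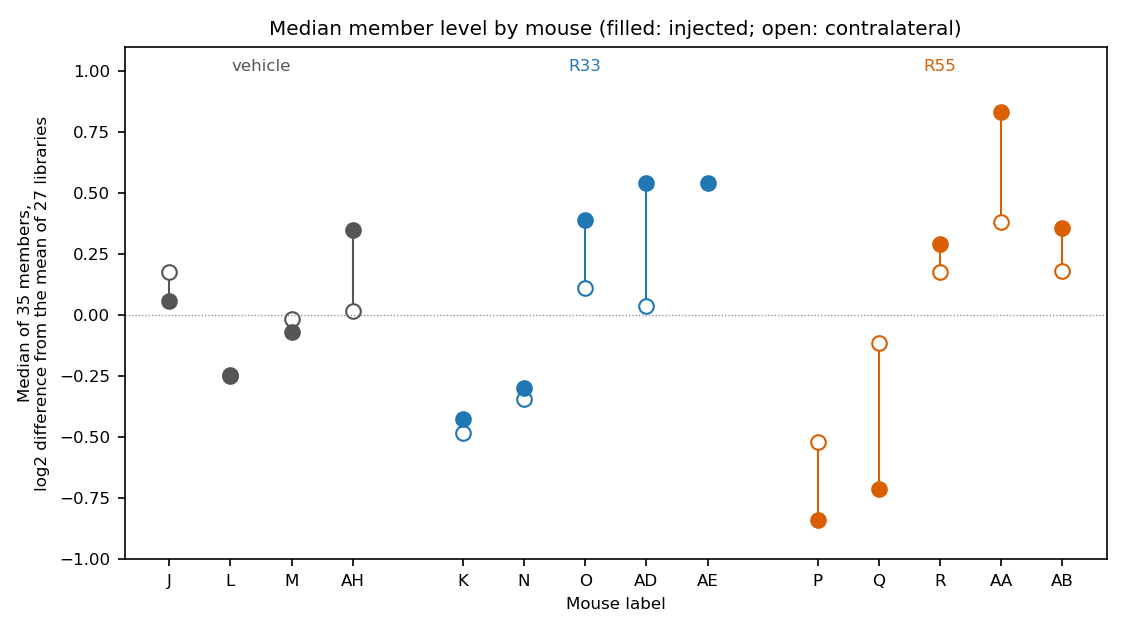
Median of 35 members by mouse as a log2 difference from the mean of 27 libraries; filled points are injected and open points contralateral sides, joined within a mouse and coloured by treatment. The R55 injected sides run from -0.84 (P) to 0.83 (AA), and the vehicle mice lie between -0.25 and 0.35.

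The members also sorted by the form of the mouse label, which the labels do not explain. The mouse means of the member median ran from -0.68 to 0.25 in the 9 mice with a single letter and from 0.18 to 0.61 in the 5 with a double letter. This sorting was not particular to the members. The median deviation of the endothelial markers Cldn5, Pecam1, Flt1 and Tek ran from -0.88 to -0.26 in double-letter libraries. In single-letter libraries it ran from 0.065 to 1.03, apart from the injected library of K (-0.32). The cause of the sorting was not tested. Single-letter mice were 3 in each treatment, and double-letter mice 1 with vehicle, 2 with R33 and 2 with R55. Within the single-letter mice the median of the members' differences was -0.23 for R55 against vehicle, with 5 of 35 above 0, and -0.11 for R33, with 7 above 0. Within the double-letter mice, with 1 vehicle mouse, it was 0.26 for R55 (29 above 0) and 0.25 for R33 (28 above 0). The pooled medians near 0 joined these differences of opposite sign.

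Genes that work with the members were followed from lists of their own. Of 11 ITAM signalling genes below Trem2, Tyrobp and the Fc receptors (among them Syk, Plcg2, Inpp5d, Vav1, Lyn and Btk), 0 were called in any comparison. Dok3, an inhibitory adaptor, had 0.25 (0.012 to 0.49) for R55 against vehicle with an unadjusted p of 0.0405. In that comparison 8.45% of all tested genes had one under 0.05. Plcg2 had 0.22 (0.0098 to 0.43) by side with an unadjusted p of 0.0409, against 3.47% of all tested genes under 0.05. Of 15 other genes of the disease-associated state 14 were tested and 0 called, the median being 0.064 for R55 and 0.034 for R33. The inhibitory receptor Lilrb4a had 0.43 (0.011 to 0.85) by side with an unadjusted p of 0.0446, beside the same 3.47% of all tested genes.

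Of the 7 receptors and ligands that partner the secreted members, 5 were tested and 0 called. Lrp1, an endocytic receptor for Apoe made by neurons and glia, had the smallest p-values among them, at -0.47 (-0.71 to -0.23, adjusted p = 0.235, unadjusted p = 0.000428) for R55 and -0.37 (-0.61 to -0.12, adjusted p = 0.834) for R33. After removal of the trend of fold change with transcript length, the R55 value for Lrp1 was -0.24 (adjusted p = 0.734). Csf1r, the receptor of Csf1 and a microglial survival receptor, was at 36.5 to 94.2 FPKM, highest in the injected library of AA.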

How the data were processed

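Polyadenylated RNA of cortex blocks was sequenced (Illumina Stranded mRNA libraries, NextSeq 2000). Per the study's methods, reads were aligned with HISAT2 to GRCm39. The counting tool, its annotation and its strand setting are not given in the sources used here. The authors deposited FPKM values per gene symbol, without counts, and 27 libraries were used. Another 5 libraries of the table, which are not in the sample list, were not used here.

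The values were tested with limma 3.58.1 (R 4.3.3) on log2(FPKM + 1), so fold changes of low genes are understated. The 12976 genes averaging 1 FPKM or more were kept, with treatment and hemisphere as terms, and p-values were adjusted by Benjamini-Hochberg over these genes. Whole fragments recovered from the FPKM steps (100.0% whole within 0.01) gave the depths and an alternative fit by limma voom. The fit with treatment and hemisphere as terms was also run on simulated fragments, for R55 against vehicle only. The simulated libraries were independent of each other, so that run does not bear on the pairing of hemispheres or on the other fits. Samples labelled with the same mouse come from the same animal, so they are paired: the deviations of the 13 pairs from their group means correlated by 0.394 on average (-0.0787 to 0.648). Libraries are counted singly in the main fit, so its p-values and intervals do not allow for this pairing.

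The members and lists were chosen with earlier results of these data known. Genes named with full values are the 4 members with the smallest p in each drug's comparison with vehicle, in that between the drugs and in that between sides, and Trem2, Tyrobp and Apoe. Exons of 19 members overlap those of another annotated gene, 2 of them on the same strand (Spp1 and Timp2). Fragments may also be shared between Lyz2 and Lyz1 and between Fcgr2b and Fcgr3.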

Additional observations from a re-analysis of the deposited data

Results flagged for a closer look

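Within-group outliers were looked for in 84 groups of 4 or 5 libraries (14 named members in 6 groups) with Dixon's gap test, and 6 were found, where chance alone flags about 1 in 20 groups. Spp1 gave 3 of them. Its level was 3.45 FPKM in the vehicle injected library of mouse L, below the next at 10.4 FPKM. It was 61.2 FPKM in the R33 injected library of mouse AD, above the next at 14.3 FPKM, and 38.5 FPKM in the R55 contralateral library of mouse AA, above the next at 14.6 FPKM. Lgals3 was 6.44 FPKM in the same contralateral library of AA, above the next at 1.02 FPKM. Itgb2 was 6.09 FPKM in the vehicle contralateral library of L, below the next at 7.68 FPKM. Trem2 was 72.3 FPKM in the vehicle injected library of AH, above the next at 46.2 FPKM.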

How the results depend on the processing

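The count of members called stayed at 0 in all 13 comparisons under 23 to 26 alternatives each (323 fits, the main fits included). The smallest adjusted p was 0.204 in limma. Leaving out 1 mouse at a time gave 0 to 0 calls. Sign changes were counted for the 4 members with the smallest p in each drug's comparison with vehicle, between the drugs and between sides. Of 412 alternative values for these, each in its own comparison, 6 changed sign. Trem2, Tyrobp, Apoe and the comparisons within a hemisphere were not counted, so this does not cover estimates nearer 0. Lgals3 under R55 was -0.0558 without mouse AA, and -0.0558 without mice AA and AD, an alternative chosen after seeing the data. Spp1 under R33 was -0.0355 without AD and -0.0344 without both. Itgb2 and Clec7a in R55 against R33 were -0.0266 without AA and 0.0499 without P. Leaving out mice, the estimates ran from -0.0558 to 0.591 for Lgals3 under R55, -0.0355 to 0.6425 for Spp1 under R33, 0.5598 to 1.2422 for Spp1 under R55, -0.0266 to 0.3309 for Itgb2, -0.3465 to 0.0499 for Clec7a, and under R33 0.0138 to 0.3198 for Cd63. The median of the members under R55 ran from -0.143 (without AA) to 0.1779 (without P). With the mouse as a replicate block, 0 members were called between the sides (median 0.033), and the pairing changed the call of no member. Over all genes, the correlation within mice took the 1 gene called for R55 to 0 and the 0 called between the sides to 1. The cause of these shifts was not tested. With 4 or 5 mice a group, the interval for Spp1 and Lgals3 in the main fit reaches past a 2-fold change under either drug.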
